A study of Mus musculus with 4 samples.

Results

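L5-S100b and L5-Bcl6 are a pair of excitatory neuron subtypes that the study assigned to layer 5 of the mouse ventromedial prefrontal cortex (vmPFC, prelimbic and infralimbic areas) and named after a gene enriched in each. Members were the cells that the deposited cell table places in either subtype, which gave 1409 L5-S100b and 382 L5-Bcl6 neurons, together 1791 of the 9368 excitatory neurons in that table and of 24801 cell barcodes in all. The neurons came from male C57BL/6 mice injected at 8 weeks of age with 5 retrograde AAVs, each carrying EGFP and its own short barcode, in the lateral hypothalamus, the basolateral amygdala, the mediodorsal thalamus, the dorsomedial striatum and the agranular insula. All animals carried the same viruses, so an uninjected group is not part of the comparison. Mouse 1, 2 and 3 each gave a library without sorting (called unsorted 1, 2 and 3 here), and 3 other mice were pooled for a library of cells sorted on EGFP. Each library held both subtypes, with 432, 338, 326 and 313 L5-S100b neurons and 135, 94, 86 and 67 L5-Bcl6 neurons in unsorted 1, 2, 3 and the sorted library. Transcripts were counted as unique molecular identifiers (UMIs, 1 per captured mRNA molecule) by 3' single-cell sequencing.

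Pyramidal neurons of layer 5 fall into classes that differ in where the axon goes. Intratelencephalic neurons connect cortical areas with each other and with the striatum and amygdala, whereas extratelencephalic neurons send axons below the forebrain and to the thalamus. The transcription factors Fezf2 and Bcl11b (Ctip2) act in the specification of the subcerebral class. S100b encodes a calcium-binding protein best known from astrocytes, and Bcl6 a zinc finger repressor that acts in neurogenesis and in B cells.

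The subtypes carry the names of S100b and Bcl6, so the promoters of these genes are shown first, from 250 bases before to 50 after the start of transcription in RefSeq (GRCm38.p6). Capitals mark TTCNNNGAA, the core of the palindrome bound by Bcl6 and STAT factors, searched on both strands (its reverse complement has the same letters). S100b lies at chr10:76253586-76253885 on the plus strand, and Bcl6 has starts at chr16:23988803-23989102 and at chr16:23981234-23981533, both on the minus strand.
S100b promoter: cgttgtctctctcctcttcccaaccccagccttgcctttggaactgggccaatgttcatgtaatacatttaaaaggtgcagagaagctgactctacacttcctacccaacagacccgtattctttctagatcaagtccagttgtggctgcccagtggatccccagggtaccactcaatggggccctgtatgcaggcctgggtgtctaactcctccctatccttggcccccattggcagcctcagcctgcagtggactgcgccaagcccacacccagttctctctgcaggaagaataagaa
Bcl6 promoter, upstream start: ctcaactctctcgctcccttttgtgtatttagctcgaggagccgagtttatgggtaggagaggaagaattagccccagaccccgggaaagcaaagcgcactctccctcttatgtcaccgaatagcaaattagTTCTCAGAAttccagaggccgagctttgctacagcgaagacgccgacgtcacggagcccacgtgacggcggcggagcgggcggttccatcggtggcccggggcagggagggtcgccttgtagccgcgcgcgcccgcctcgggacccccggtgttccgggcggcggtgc
Bcl6 promoter, downstream start: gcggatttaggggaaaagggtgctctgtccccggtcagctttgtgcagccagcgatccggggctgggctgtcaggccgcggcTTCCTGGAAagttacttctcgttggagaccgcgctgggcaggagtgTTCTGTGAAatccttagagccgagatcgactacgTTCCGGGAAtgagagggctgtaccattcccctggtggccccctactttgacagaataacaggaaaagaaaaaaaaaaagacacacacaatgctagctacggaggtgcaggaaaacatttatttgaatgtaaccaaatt
The upstream Bcl6 window holds 1 match, the downstream window holds 3 and the S100b window holds 0. Among 32851 promoters of the same length, 8.30% held a match. Of the genes called in this comparison whose symbol matched the table, 96 of 1222 higher in L5-S100b (7.86%) and 65 of 901 higher in L5-Bcl6 (7.21%) held one, against 7.89% of the 9630 matched genes among all those tested. A gene counted if any of its promoters held a match, whereas the shares of all promoters count each promoter window. The POU octamer ATGCAAAT (or ATTTGCAT) was in 1.39% and 1.22% of these genes, against 1.45% of all matched genes. The E-box CAGATG (or CATCTG), a form bound by Neurod factors, was in 15.7% and 15.5%, against 13.4% of all matched genes and 17.2% of all promoters. A match is a description of letters and not a bound site.

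To ask what separates the subtypes directly, raw counts were summed per library and subtype and compared with the library as a block. Calls required an adjusted p under 0.05 (edgeR's quasi-likelihood test, Benjamini-Hochberg) and a log2 fold change of 0.5 or more in size. Of 12644 genes tested, 2848 (22.5%) were called, of which 1648 (13%) were higher in L5-S100b and 1200 (9.49%) higher in L5-Bcl6. A further limit on size left 1502 genes at a log2 fold change of 1 or more in size and 663 at 2 or more, and of the latter 442 were higher in L5-S100b and 221 higher in L5-Bcl6. The direction was the same in 4 of 4 libraries for 2730 of the called genes, and the libraries of one subtype did not overlap with those of the other for 3648 of all genes tested (28.9%). The authors made the subtypes from the expression of these same cells, so a call describes how alike a difference is across libraries and does not test that the subtypes exist. Levels are given as CPM, the UMI counts scaled to a common total per sum, and every fold change below is L5-S100b over L5-Bcl6 on a log2 scale, so that a negative value means higher in L5-Bcl6.

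**Figure D1:**
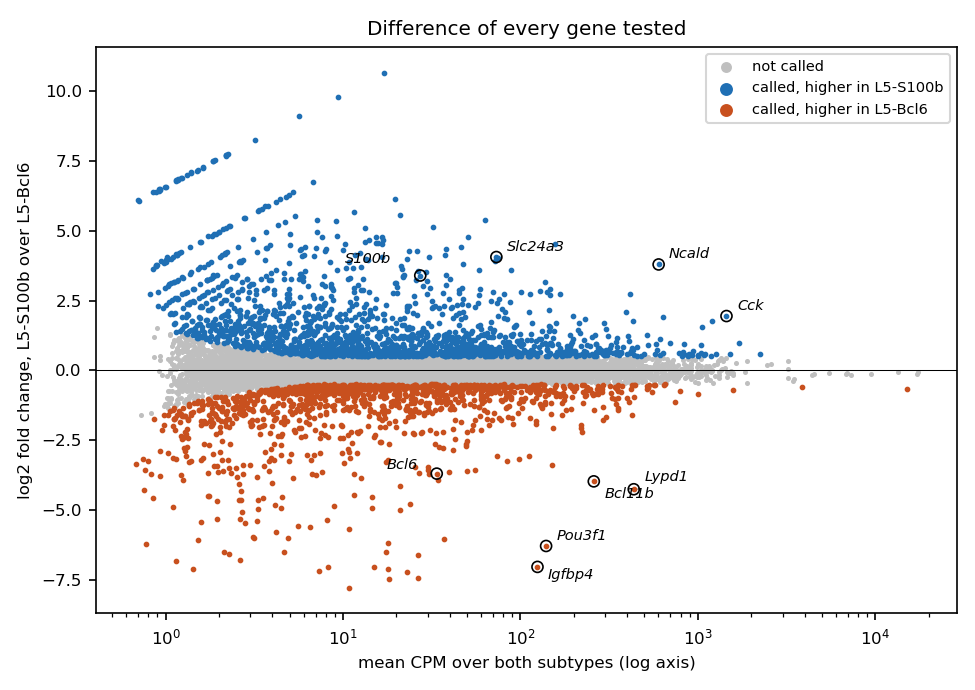
Each point is 1 of 12644 genes tested, with the mean CPM over both subtypes on a log x axis and the log2 fold change of L5-S100b over L5-Bcl6 on the y axis. Blue points were called higher in L5-S100b (1648), orange points were called higher in L5-Bcl6 (1200), and circles mark labelled genes; diagonal streaks at low CPM are genes with few or no counts in L5-Bcl6.

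The genes that name the subtypes separated them as labelled. S100b stood at 45.7, 57.8, 55.3 and 40.8 CPM in the L5-S100b neurons of unsorted 1, 2, 3 and the sorted library and at 5.51, 5.58, 6.4 and 0.95 CPM in L5-Bcl6 neurons (log2 fold change 3.39 ± 0.15 SE, adjusted p = 5.27e-49, edgeR). Bcl6 stood at 5.52, 2.79, 5.31 and 5.52 CPM in L5-S100b and at 61.3, 61.9, 64.9 and 62.7 CPM in L5-Bcl6 (log2 fold change -3.69 ± 0.12 SE, adjusted p = 4.88e-67, edgeR). Neither gene overlapped between subtypes. Etv1, the ETS factor used by the study as a layer 5 marker, was present in both and higher in L5-S100b (447 ± 33.1 against 250 ± 36.2 CPM, SD, n = 4, log2 fold change 0.84). Slc17a7, the vesicular glutamate transporter of most cortical pyramidal neurons, was likewise at 1292 ± 28.3 and 883 ± 63.9 CPM (log2 fold change 0.55), while Slc17a6, its relative of subcortical neurons, was higher in L5-Bcl6 (2.97 ± 0.865 against 16.1 ± 2.89 CPM, log2 fold change -2.43). Cux2, a layer 2/3 marker, and Sulf1, a layer 6 marker, stayed at means under 6 CPM in both.

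**Figure D2:**
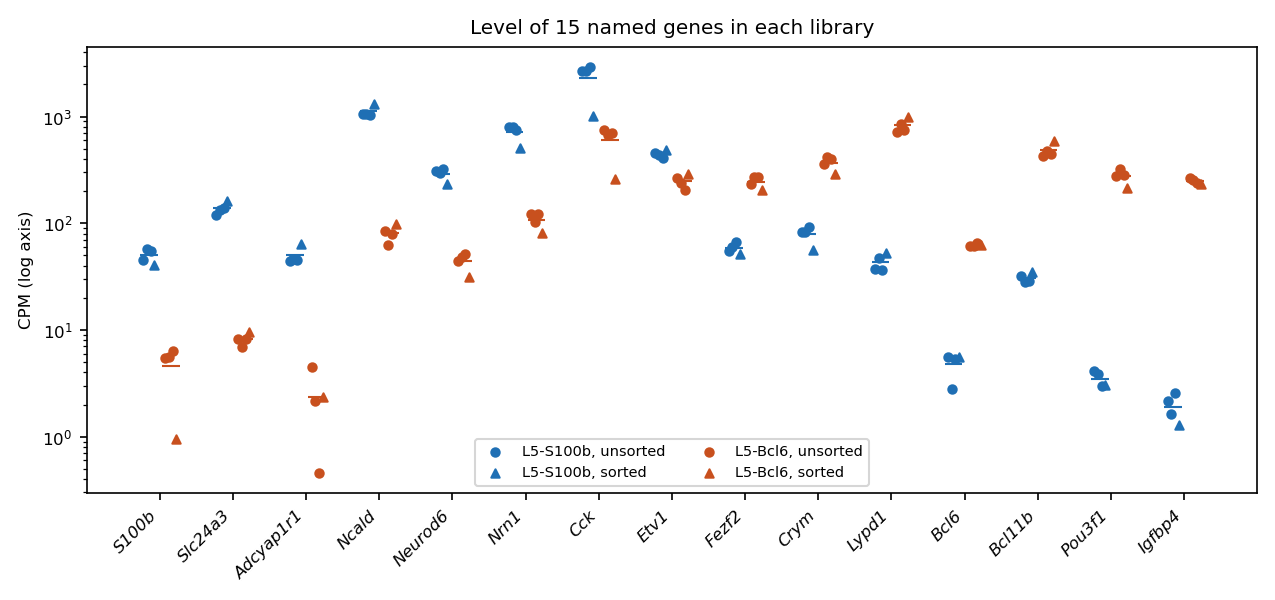
CPM on a log axis for 15 genes, with circles for the unsorted libraries, triangles for the sorted library and a line at the mean of 4 libraries. For each of these genes, all 4 L5-S100b libraries (blue) sit on one side of all 4 L5-Bcl6 libraries (orange), from S100b on the left to Igfbp4 on the right.

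Each count of list members from here on stands beside the 13% of all genes called higher in L5-S100b and the 9.49% called higher in L5-Bcl6. Transcription factors were called in both directions. Of 34 cortical factors listed and tested, 12 were higher in L5-S100b, 11 higher in L5-Bcl6 and 11 not called, against 22.5% of all genes called. Pou3f1, a POU domain factor, differed most: it stood at 4.09, 3.84, 3.00 and 3.04 CPM in L5-S100b and at 279, 325, 284 and 214 CPM in L5-Bcl6 (log2 fold change -6.28 ± 0.082 SE, adjusted p = 1.56e-121, edgeR). Its relative Pou3f2 went the other way, with 36.1 ± 2.02 against 4.42 ± 1.02 CPM (log2 fold change 3.00). Bcl11b stood at 32.2, 28, 28.6 and 35.1 CPM in L5-S100b and at 426, 478, 448 and 596 CPM in L5-Bcl6 (log2 fold change -3.97). Fezf2, which lies upstream of Bcl11b in the developing cortex, was detected at 58.7 ± 6.56 CPM in L5-S100b and at 245 ± 31.7 CPM in L5-Bcl6 (log2 fold change -2.06). The nuclear factor I gene Nfia was higher in L5-Bcl6 (23.8 ± 2.32 against 198 ± 12.9 CPM, log2 fold change -3.06), and the basic helix-loop-helix factor Neurod6 was higher in L5-S100b (290 ± 39.3 against 43.9 ± 8.86 CPM, log2 fold change 2.73). Among the factors not called, Mef2c, Zbtb18 and Nfix differed by log2 fold changes of 0.20, -0.26 and 0.37.

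Lists of known projection class markers were then counted. Of 19 tested members of a 20-gene extratelencephalic list, 17 were higher in L5-Bcl6 and 0 higher in L5-S100b, with a median log2 fold change of -2.22 against -0.00923 over all genes. Beside the factors above, these included Crym, a thyroid hormone binding protein (78.9 ± 15.5 against 367 ± 59.0 CPM, log2 fold change -2.22), Npr3, the natriuretic peptide clearance receptor (4.21 against 64.4 CPM, log2 fold change -3.92), Tcerg1l (4.25 against 56.7 CPM, log2 fold change -3.71) and Fam84b (0.27 against 45.8 CPM, log2 fold change -7.20). S100a10 (log2 fold change -0.11) and Bhlhe22 (-0.33) were not called, and Slco2a1 was below the count filter. Of 20 members of an intratelencephalic list, 15 were higher in L5-S100b, 2 higher in L5-Bcl6 and 3 not called, with a median of 1.63. They included Deptor, an mTOR inhibitor (177 ± 42.3 against 25.0 ± 5.76 CPM, log2 fold change 2.81), Cdh12 (3.34), Rorb (2.09) and S100b itself. Il1rapl2, a synaptic receptor of the interleukin 1 receptor family, had 1294 counts in L5-S100b and 0 in L5-Bcl6, which is at least 108-fold higher in CPM against a floor of 3 counts over the group. Stard8 and Fam19a1 went against the list, with log2 fold changes of -1.97 and -0.96, and Lhx2, Cux1 and Inhba were not called. These marker lists overlap with genes that cortical taxonomies use, and both subtypes were drawn from expression. The extratelencephalic list also holds Bcl6, which names a subtype, and Pou3f1, which the study calls a marker of L5-Bcl6. The counts thus describe the subtypes and do not test a projection.

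Markers of other excitatory classes were mixed. Of 7 near-projecting markers tested, 5 were higher in L5-S100b, among them the thyrotropin-releasing hormone receptor Trhr (25.8 ± 3.90 against 0.695 ± 0.579 CPM, log2 fold change 5.09), and 2 higher in L5-Bcl6, led by Lypd1, a modulator of nicotinic receptors, at 37.5, 47.7, 36.1 and 52.6 against 710, 858, 746 and 994 CPM (log2 fold change -4.25). Tshz2, which counted among the 5 at 5.4 ± 2.41 against 2.89 ± 2.55 CPM, overlapped between subtypes, and the 5 became 3 without unsorted 1, 4 without unsorted 2 or the sorted library, 3 with DESeq2 and 2 with thinned cells. Of 9 corticothalamic markers, 2 were higher in each subtype and 5 not called. Of the 2 higher in L5-Bcl6, Sla (0.945 ± 0.534 against 2.10 ± 0.777 CPM) overlapped between subtypes, and the count was 1 without any 1 of the 4 libraries and with DESeq2. Of 8 upper layer markers, 3 were higher in L5-S100b, led by Rgs8 (log2 fold change 3.97), and 4 higher in L5-Bcl6, led by Lamp5 (16.2 ± 2.93 against 153 ± 8.19 CPM, log2 fold change -3.25). Of 5 deep intratelencephalic and layer 6b markers tested, 4 were higher in L5-S100b and Nr4a2 was not called. Gnb4, among the 4, reached 38.2 against 7.84 CPM (log2 fold change 2.22). With cells thinned to 10000 UMIs, 1 upper layer marker was higher in L5-S100b and 3 in L5-Bcl6, of 8 tested. The deep list then gave 2 and 1, of 3 tested.

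The 12 genes with the largest log2 fold change toward L5-S100b, among called genes with 4 of 4 libraries on the same side and 50 CPM or more, ranged from 3.93 for Zdhhc22, a palmitoyltransferase, to 5.39 for Trbc2, a T cell receptor constant region gene with a near-identical copy that makes its count uncertain. Rmst, a long noncoding RNA, stood at 62.6, 59.3, 70.8 and 58.0 CPM against 2.75, 0.859, 0.914 and 2.38 CPM (log2 fold change 5.12). Camk2d, the delta subunit of the calcium/calmodulin kinase CaMKII, stood at 323, 295, 299.7 and 279 CPM against 23.1, 6.87, 11.0 and 9.03 CPM (log2 fold change 4.51). Every L5-S100b library lay far above every L5-Bcl6 library for both. Slc24a3, a potassium-dependent sodium-calcium exchanger, was at 138 ± 17.4 against 8.22 ± 1.07 CPM (log2 fold change 4.06), and Adcyap1r1, the receptor of the peptide PACAP, at 50.2 ± 9.24 against 2.36 ± 1.65 CPM (log2 fold change 4.29). Others of the 12 were Bok (4.77), a BCL2 family member, Rims3 (4.42), of the presynaptic active zone, Nrep (4.14), Olfm3 (4.05) and Atp1b2 (4.03), a subunit of the sodium pump.

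The 12 genes furthest in the other direction ran from -3.61 for Fam126a to -7.44 for Dlk1, a Notch ligand-like protein that was at 38.2, 39.1, 55.8 and 78.4 CPM in L5-Bcl6 and at 0.552 CPM or less in every L5-S100b library. Igfbp4, which binds insulin-like growth factors, stood at 2.15, 1.63, 2.54 and 1.29 CPM in L5-S100b against 264, 253, 240.0 and 234 CPM in L5-Bcl6 (log2 fold change -7.03 ± 0.093 SE, adjusted p = 1.80e-120, edgeR). Gprc5b, an orphan G protein-coupled receptor, was at 0.534 ± 0.227 against 52.2 ± 13.8 CPM (log2 fold change -6.59), and Adamts2, a procollagen protease, at 1.11 ± 0.160 against 72.6 ± 15.2 CPM (log2 fold change -6.02). Igfbp4, Gprc5b, Pou3f1 and Crym belong to a list of 11 genes taken from among those the study tied to projections. They were picked by the study from these same libraries and are not independent evidence. Of the 11, 4 were higher in L5-Bcl6, 4 higher in L5-S100b (Slc24a3, Rorb, Rprm and Nptxr) and 3 (Bc1, Hs3st4 and Cyr61) not called. Fam84a (-3.62) completed the set with Bcl6, Tcerg1l, Npr3, Bcl11b, Lypd1 and Pou3f1.

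Set beside the other 5 excitatory subtypes, the sets at either end had different shapes. Of the 12 genes furthest toward L5-Bcl6, 10 had their highest mean of all 7 subtypes in L5-Bcl6, the exceptions being Lypd1, at 1741 ± 43.8 CPM in L5-Htr2c, and Fam84a. Pou3f1 was at 277 ± 49.7 CPM in L5-Bcl6, 38.3 ± 7.31 CPM in L2/3-Calb1 and at means of 6.03 CPM or less in the other 5 subtypes. Of the 12 furthest toward L5-S100b, only Slc24a3 and Nrep were highest in L5-S100b, whereas 10 had their lowest mean of all 7 subtypes in L5-Bcl6. Camk2d, for example, was at 12.6 CPM in L5-Bcl6 and between 35.2 and 408 CPM in the other 6. S100b itself was highest in L5-S100b (51.7 ± 7.99 CPM), with L2/3-Rorb next at 10.0 ± 5.22 CPM. These levels are a description with no test, because the genes were chosen on the contrast of L5-S100b and L5-Bcl6.

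**Figure D3:**
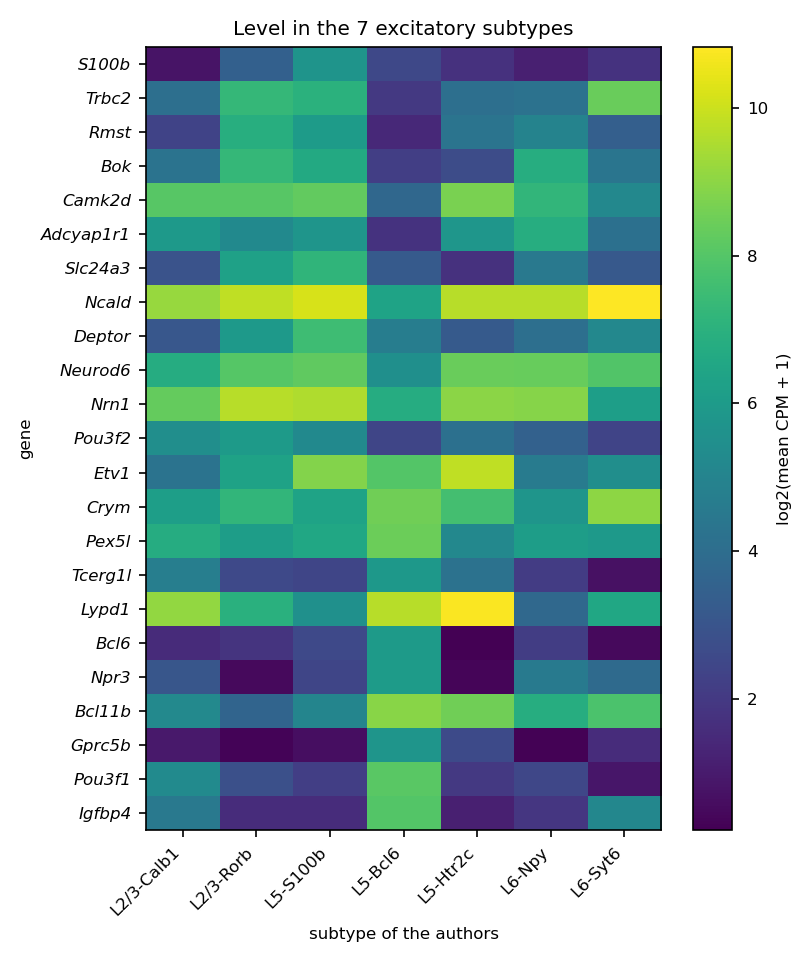
Colour gives log2(mean CPM + 1) over 4 libraries for 23 genes (rows) in the 7 excitatory subtypes of the authors (columns). The lower rows, such as Igfbp4, Pou3f1 and Gprc5b, are bright mainly in the L5-Bcl6 column, and upper rows such as Camk2d, Ncald and Neurod6 are darkest there or nearly so.

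Ion channel genes differed in part. Of 41 potassium channel genes, 14 were higher in L5-S100b, against 13% of all genes, and 5 higher in L5-Bcl6, a share near the 9.49% of all genes. Kcnk2, the two-pore channel TREK-1, stood at 37.8, 36.5, 40.4 and 40.4 CPM in L5-S100b and at 1.03, 0.429, 0.457 and 0 CPM in L5-Bcl6 (log2 fold change 6.15), and the fast delayed rectifier Kcnc2 at 29.4 ± 3.14 against 1.16 ± 0.921 CPM (4.54). Kcnh1 was higher in L5-S100b too (log2 fold change 2.77), Kcnip1, a Kv4-interacting protein, was at 0.264 ± 0.137 against 6.78 ± 2.19 CPM (-4.58), and the abundant Kcnma1 and Kcna2 were not called at 0.43 and 0.37. Kcnh5 had 363 counts in L5-S100b and 1 in L5-Bcl6, a ratio of CPM of 90.9 with a counting interval of 16.2 to 3600. Of 28 sodium, calcium and HCN channel genes, 4 were higher in L5-S100b, a share near the 13% of all genes, and 7 higher in L5-Bcl6, against 9.49%. Pex5l (TRIP8b), an auxiliary subunit of HCN channels, was at 89.5 ± 7.16 against 348 ± 14.9 CPM (log2 fold change -1.96), the T-type calcium channel Cacna1h at 13.2 ± 2.68 against 72.9 ± 8.26 CPM (-2.46) and Cacna2d3 at 28.9 against 90 CPM (-1.63). Hcn3 was higher in L5-S100b (log2 fold change 1.56). The sodium channel genes Scn8a and Scn2b were not called.

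Receptors for fast transmitters changed by gene. Of 22 glutamate receptor genes, 6 were higher in each subtype. The NMDA receptor subunit Grin3a was at 43.4 ± 20.0 against 6.64 ± 2.55 CPM (log2 fold change 2.67) and the metabotropic receptor Grm3 at 41.4 ± 14.6 against 10.5 ± 7.30 CPM (1.97), and the sorted library was the highest for both in L5-S100b. The kainate receptor subunit Grik2 was higher in L5-Bcl6 (35.4 ± 3.67 against 115 ± 13.2 CPM, log2 fold change -1.70), and the abundant Gria2, Grin2b and Grm5 were not called (-0.33, -0.26 and -0.44). Of 14 GABA receptor genes, 4 were higher in L5-Bcl6, including the GABA-A subunit Gabra2 (107 ± 12.5 against 278 ± 28.6 CPM, log2 fold change -1.37), and 1 higher in L5-S100b, the GABA-B subunit Gabbr2 (0.91).

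Receptors for neuromodulators differed for most members. Of 24 tested, 10 were higher in L5-S100b and 9 higher in L5-Bcl6. The dopamine D1 receptor Drd1 stood at 28.7, 26.8, 24.9 and 27.2 CPM in L5-S100b and at 1.38, 0.429, 0.914 and 1.43 CPM in L5-Bcl6 (log2 fold change 4.66 ± 0.24 SE, adjusted p = 9.64e-41, edgeR), and the serotonin receptor Htr2a at 28.2, 27, 27.7 and 21.2 against 1.38, 1.72, 1.37 and 2.38 CPM (3.95). L5-Bcl6 was in turn higher for the serotonin receptor Htr4 (0.138 ± 0.105 against 6.38 ± 1.69 CPM, log2 fold change -5.37) and the adrenergic receptor Adra2a (0.936 ± 0.401 against 9.04 ± 1.35 CPM, -3.25). Of 24 neuropeptide genes and their receptors, 9 were higher in L5-S100b and 7 higher in L5-Bcl6. Prodynorphin (Pdyn), the precursor of dynorphins, stood at 0.716, 0.465, 1.27 and 2.39 CPM in L5-S100b against 31.3, 41.7, 52.6 and 37.5 CPM in L5-Bcl6 (log2 fold change -4.99). Oprk1, the receptor of dynorphins, had 168 counts in L5-S100b and 1 in L5-Bcl6 (ratio of CPM 42.1, counting interval 7.45 to 1670). The ligand and its receptor were thus higher on opposite sides of this pair, but neither was particular to it. Oprk1 was low in both, at 4.61 CPM in L5-S100b, against 96.2 CPM in L6-Npy. Pdyn was at 39.2 CPM in L2/3-Calb1 and 41.0 CPM in L5-Bcl6. Cholecystokinin (Cck) was at 2303 ± 871 against 597 ± 225 CPM (log2 fold change 1.94) with the sorted library lowest in both, and Cartpt and the melanocortin receptor Mc4r were low genes of L5-Bcl6, at 5.24 ± 3.40 and 8.66 ± 1.68 CPM.

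Adhesion and guidance genes separated the subtypes in both directions. Of 24 cadherin and protocadherin genes, 7 were higher in L5-S100b and 10 higher in L5-Bcl6. Pcdh15 was at 89.0 ± 3.29 against 6.18 ± 1.16 CPM (log2 fold change 3.82), while the type II cadherins Cdh6 (10.0 ± 0.737 against 73.0 ± 5.19 CPM, -2.86) and Cdh7 (9.26 ± 0.834 against 63.6 ± 12.3 CPM, -2.78) lay on the other side. Of 46 axon guidance genes, 16 were higher in L5-S100b and 13 higher in L5-Bcl6. Robo1, a receptor for Slit ligands, stood at 12.3, 13.0, 12.4 and 14.5 CPM against 85.7, 78.6, 79.1 and 99.3 CPM (log2 fold change -2.72), and the semaphorin Sema6a (-3.71) and the netrin receptor Unc5b (-5.46, at 5.52 ± 2.95 CPM in L5-Bcl6) were on the same side. Sema3e was higher in L5-S100b (33.0 ± 2.50 against 5.03 ± 3.22 CPM, log2 fold change 2.77), and Sema3d had 712 counts there and 0 in L5-Bcl6, at least 59.5-fold higher in CPM. Robo2, Plxna2 and Epha5 were not called. Of 32 synaptic organizer genes, 9 were higher in L5-S100b and 8 higher in L5-Bcl6, with Nptx2, a pentraxin that clusters AMPA receptors, at 55.3, 47.5, 53.6 and 59.5 against 7.23, 1.72, 9.14 and 0 CPM (log2 fold change 3.51), the cerebellins Cbln1 (2.36) and Cbln2 (2.17) and the teneurin Tenm1 (1.93).

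Neurofilament subunits, the main filaments of large axons, were higher in L5-Bcl6. Nefh was at 10.7 ± 1.28 against 26.4 ± 4.44 CPM (log2 fold change -1.29), Nefm at 50.1 ± 5.89 against 121 ± 25.7 CPM (-1.26), Nefl at 215 ± 7.30 against 365 ± 12.1 CPM (-0.76) and the related Ina at 258 ± 17.9 against 561 ± 61.1 CPM (-1.12). Of the 25 genes in this axon cytoskeleton list, 6 were higher in L5-Bcl6 (against 9.49% of all genes) and 4 higher in L5-S100b (against 13%), including Prph (1.98) and Basp1 (2247 ± 68.8 against 1150.3 ± 74.0 CPM, 0.97), while Map1b, Stmn1 and Stmn3 were not called. Of 20 genes of calcium-binding proteins, 7 were higher in L5-S100b and 3 higher in L5-Bcl6, against 13% and 9.49% of all genes. Ncald, a neuronal calcium sensor, stood at 1063, 1065, 1045 and 1311 CPM against 84.7, 62.7, 78.6 and 97.4 CPM (log2 fold change 3.79), followed by its relative Hpca (261 ± 33.5 against 34.0 ± 7.76 CPM, 2.91), Necab1 (2.69) and Pcp4 (1.93). Of 13 synaptotagmin genes, 5 were higher in L5-S100b and 1, Syt17, higher in L5-Bcl6, and the largest difference was 2.18 for Syt10. Syt17 (-0.51) lay at the limit on fold change and was not called without unsorted 2 (-0.49) or unsorted 3 (-0.50). The count of 1 became 2 without unsorted 1. With cells thinned to 10000 UMIs, 3 synaptotagmin genes were higher in L5-S100b and 1 in L5-Bcl6, of 11 tested.

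Immediate early genes, which are induced by neuronal activity, were higher in L5-S100b for 9 of 20, against 13% of all genes, and higher in L5-Bcl6 for 1, against 9.49%. Arc stood at 153, 162, 169 and 172 against 81.9, 42.5, 76.4 and 63.2 CPM (log2 fold change 1.29), Npas4 at 113 ± 13.6 against 55.2 ± 17.7 CPM (1.01) and Ier2 at 114 ± 14.4 against 50.1 ± 5.28 CPM (1.19). Fosl2 went the other way (27.8 ± 0.172 against 57.2 ± 6.17 CPM, -1.04). Ptgs2 overlapped between the subtypes because of 13.3 CPM in the L5-Bcl6 neurons of unsorted 3. Among all excitatory subtypes, Arc and Npas4 had their lowest means in L5-Bcl6 (66.4 and 55.5 CPM), whereas Ier2 was lower in L2/3-Calb1 (33.4 CPM). What sets these levels, activity included, was not tested.

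Nuclear respiratory chain genes shared a small shift toward L5-Bcl6. All 22 tested had a log2 fold change below 0. In edgeR's test without the limit on fold change, 20 passed an adjusted p under 0.05. Small differences often pass that test: of all 12644 genes, 6401 passed an unadjusted p under 0.05 in it, in either direction. With the limit 2 were called, Sdhb (log2 fold change -0.60) and Uqcrc1 (-0.50), both higher in L5-Bcl6 though Uqcrc1 overlapped between subtypes and was not called without unsorted 3 (-0.48) or the sorted library (-0.50), and the list median was -0.33 against -0.00923 over all genes. Of 13 mitochondrially encoded genes 0 were called by edgeR with the limit on fold change (1 without unsorted 1); 12 of them lay below 0, with a list median of -0.11. The share of mitochondrial UMIs per neuron had medians of 6.54% ± 1.75 in L5-S100b and 7.20% ± 1.92 in L5-Bcl6 (SD, n = 4) and was lower in L5-S100b in 4 of 4 libraries. The exact two-sided sign-flip permutation test gave p = 0.125, the smallest that 4 libraries allow.

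**Figure D4:**
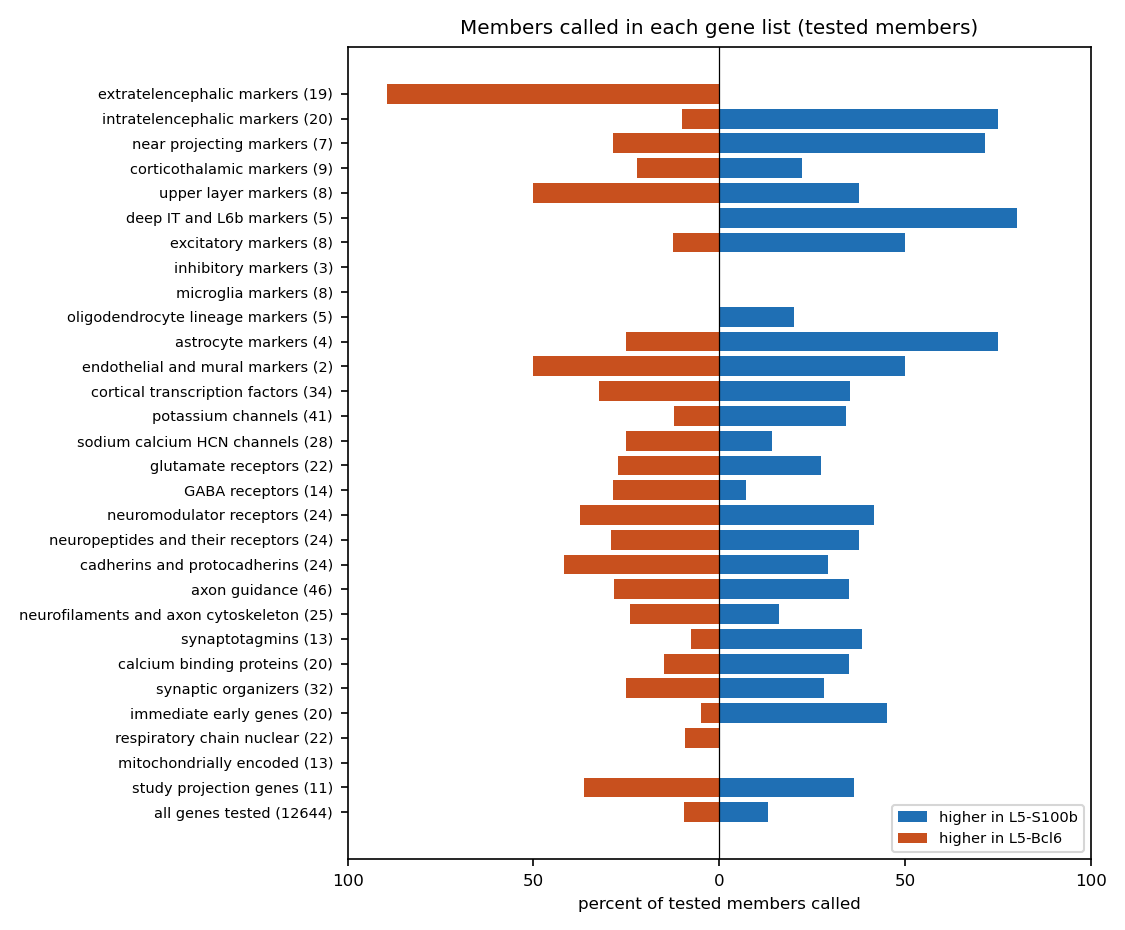
Bars give the percent of tested members (number in brackets) called higher in L5-S100b (right, blue) or higher in L5-Bcl6 (left, orange) for 29 gene lists and for all genes tested. The extratelencephalic bar reaches 89.5% on the L5-Bcl6 side, against 9.49% of all genes, and the microglia, inhibitory and mitochondrially encoded lists have no bar.

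Markers of other cell types differed in level by list. After thinning each neuron to 10000 UMIs, microglial markers summed to means of 0.0951 to 0.359 UMIs per neuron across libraries in L5-S100b and 0.0606 to 0.404 in L5-Bcl6, and inhibitory markers to at most 0.199 and 0.165. Of 8 microglial and 3 inhibitory markers tested, 0 were called by edgeR in either direction. Of 5 oligodendrocyte lineage markers tested, Mobp was called (19.9 ± 1.79 against 1.93 ± 1.61 CPM, log2 fold change 3.31), and Mbp, Olig1 and Mag were not; Olig2 and Mog had too few counts to test. The astrocyte list summed to 5.94 to 7.84 UMIs per neuron in L5-S100b and 1.21 to 2.08 in L5-Bcl6, and its most abundant member was Slc1a2, the glutamate transporter GLT-1, at 620, 592, 608 and 733 against 128, 143, 149.5 and 182 CPM (log2 fold change 2.09). Its other called members were Aldoc (2.01), Aldh1l1 (122 counts against 0, at least 10.2-fold higher in CPM) and, in the other direction, Slc1a3 (-1.86), while Aqp4, Gja1, Gjb6 and Gfap had too few counts to test. Endothelial and mural markers summed to 0.112 to 0.179 UMIs in L5-S100b and 0.288 to 0.479 in L5-Bcl6, where Rgs5 was called (4.73 ± 1.25 against 25.0 ± 4.14 CPM, -2.39), Itm2a was called in the other direction with overlapping libraries (0.67) but not without unsorted 1, unsorted 2 or the sorted library, and Flt1, Cldn5 and Pecam1 had too few counts to test. A UMI of any of 24 defining markers of other cell types was found in 69.2% ± 4.04 of L5-S100b and 57.1% ± 13.0 of L5-Bcl6 neurons. The share was higher in L5-S100b in 3 of 4 libraries. At 3 or more UMIs of the 47 listed markers, the shares were 97.0% and 94.4%. The 24 include Mobp and Rgs5 and the 47 include Slc1a2, genes that differ between neuron subtypes. Mobp, for example, was at 23.6 CPM in L6-Npy and 1.95 CPM in L5-Bcl6. The shares therefore do not measure RNA of other cells alone. Without the neurons that carried a defining marker, 2018 genes were called, of which 1763 were among the 2848, and 16 of 18 extratelencephalic markers were still higher in L5-Bcl6.

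Single neurons showed the same split. A Pou3f1 UMI was found in 89.9% ± 4.69 of L5-Bcl6 and 5.67% ± 0.358 of L5-S100b neurons, and in 84.9% ± 4.42 and 3.23% ± 0.324 after thinning to 10000 UMIs (SD, n = 4). An S100b UMI was found in 42.9% ± 4.88 of L5-S100b and 6.28% ± 2.34 of L5-Bcl6 neurons, or 27.6% ± 5.71 and 2.36% ± 1.38 after thinning, so most L5-S100b neurons had no UMI of the gene that names them at that depth. Bcl6 was found in 70.5% ± 3.09 of L5-Bcl6 neurons, or 38.8% ± 3.98 after thinning, and Pou3f1 was found together with Fezf2 in 73.9% ± 4.12 and together with Bcl6 in 34.8% ± 6.44 of them. As a reference for free RNA, microglia-like cells were thinned with the neurons to 2000 UMIs (2735 such cells, with library medians of 4136 to 7130 UMIs before thinning). Pou3f1 then stood at 39.6% of L5-Bcl6, 1.04% of L5-S100b and 1.94% of microglia-like cells, S100b at 7.05% of L5-S100b, 1.22% of L5-Bcl6 and 1.76% of microglia-like cells, and Bcl6 at 10.4%, 0.815% and 7.31% of L5-Bcl6, L5-S100b and microglia-like cells. The values of S100b in L5-Bcl6 and of Pou3f1 in L5-S100b lay below those of microglia-like cells. Before thinning, however, the neurons were far deeper, with median UMIs of 27525 in L5-S100b and 25833 in L5-Bcl6. Thinning cells of such unlike depth can leave unlike shares of free RNA, so these values cannot be read as background. For Bcl6, microglia-like cells lay above L5-S100b neurons, so they give no level of free RNA for this gene. For Etv1 the share of neurons with a UMI ran against its CPM (75.1% of L5-S100b and 84.8% of L5-Bcl6 after thinning to 10000 UMIs), and no order was read from it.

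**Figure D5:**
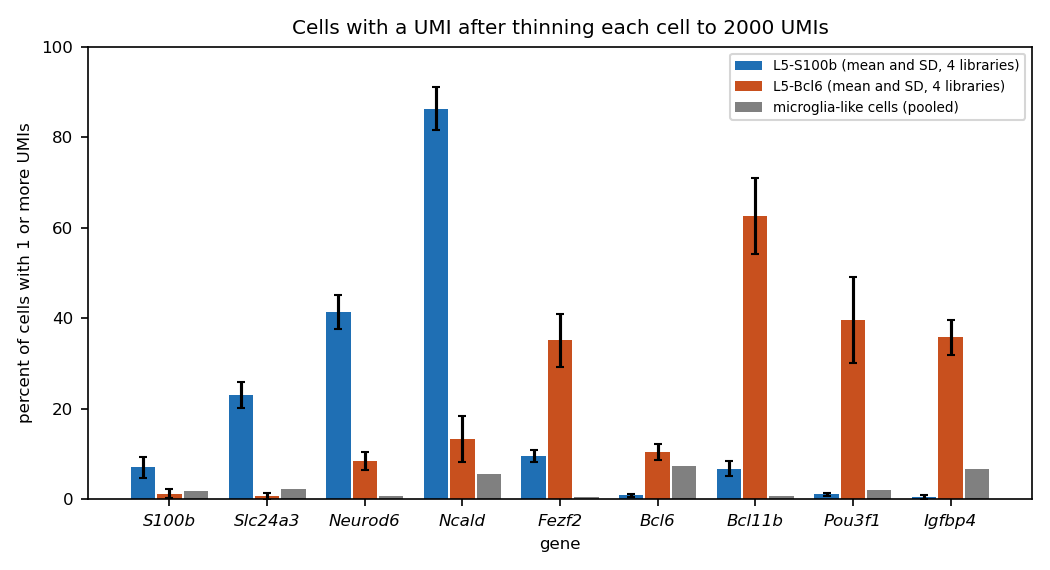
Percent of cells with 1 or more UMIs of 9 genes after each cell was thinned to 2000 UMIs, as mean and SD of 4 libraries for L5-S100b (blue) and L5-Bcl6 (orange) and over 2735 pooled microglia-like cells (grey). Pou3f1 is at 39.6% in L5-Bcl6 and near the grey bar in L5-S100b, while the grey bar for Bcl6, at 7.31%, comes close to the 10.4% of L5-Bcl6.

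Both subtypes were well labelled by the viruses. The deposited feature named barcode was found at 1 or more UMIs in 82.9%, 87.3%, 83.4% and 92.3% of L5-S100b neurons and in 83.7%, 79.8%, 76.7% and 92.5% of L5-Bcl6 neurons of unsorted 1, 2, 3 and the sorted library. The means of 86.5% ± 4.37 and 83.2% ± 6.85 (SD, n = 4) differed by 3.29 percentage points (SD of the difference 4.41), and the exact sign-flip test gave p = 0.5. At 5 or more UMIs the shares were 68.4% and 63.0% (p = 0.25 in the exact test), after thinning to 10000 UMIs they were 80.8% and 75.4% at 1 or more UMIs (p = 0.25, exact test), and after thinning to 2000 UMIs they were 57.1% and 48.4%, higher in L5-S100b in 4 of 4 libraries (p = 0.125, exact test, the smallest possible). Microglia-like cells carried the barcode in 3.19% to 4.03% of cells in the unsorted libraries and in 19.6% of 46 in the sorted library. Scaled as CPM of each sum, the barcode was at 921 ± 310 in L5-S100b and 920.0 ± 287 in L5-Bcl6 (p = 1, exact sign-flip test). These means were alike although the libraries went both ways. L5-S100b minus L5-Bcl6 was -321, 202, 232 and -109 in unsorted 1, 2, 3 and the sorted library. With 4 libraries these tests cannot pass 0.05 whatever the difference, and the sorted library was selected on EGFP, which the same viruses carry. The feature does not tell the targets apart.

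L5-S100b neurons made up 76.2% (95% Wilson interval 72.5 to 79.5), 78.2% (74.1 to 81.9) and 79.1% (74.9 to 82.8) of the members in unsorted 1, 2 and 3 and 82.4% (78.2 to 85.9) in the sorted library, intervals that cover counting error only. Sorting was not tested for this share because it had 1 library. For genes, the difference between the subtypes in the sorted library departed from that in the unsorted libraries for 34 of 13123 tested (0.259%, edgeR), which assumes that the lone sorted library varies like the others and does not separate sorting from that library. Median UMIs per neuron were 27525 ± 3964 in L5-S100b and 25833 ± 3351 in L5-Bcl6 and median genes detected 6278 ± 414 and 6125 ± 377 (SD, n = 4), each higher in L5-S100b in 4 of 4 libraries (p = 0.125, exact sign-flip test). After thinning to 10000 UMIs, the medians of genes were 3880 ± 54.4 and 3878 ± 63.6 (p = 0.75, exact test). The 8 sums held 2036756 to 10418961 UMIs, and the L5-Bcl6 sums were the smaller in each library. Of the members, 15 had a cell barcode sequence that also occurs in another library, and 0 of them shared it with another member.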

How the data were processed

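Single-cell 3' RNA libraries of vmPFC were analysed from the deposited raw UMI counts, which the authors made with Cell Ranger 3.0.2 (Chromium 3' v3, mm10 reference with the viral barcodes added), 1 matrix per library with no normalization. The deposited cell table gives the subtype of each excitatory neuron, its library and the percent of mitochondrial UMIs, as computed by the authors with Seurat and Scanpy. The authors required 500 to 8000 genes, 1000 to 60000 UMIs and less than 20% of UMIs from mitochondria, which removed cells above the limits as possible doublets, clustered them in 2 rounds and removed low-quality clusters. No doublet caller was run here. Totals recomputed per cell were within 70 UMIs of those in the cell table.

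Counts of 31053 genes were summed per library and subtype, without the feature named barcode, which was 0.0319% to 0.0384% of the UMIs of a library. The feature was taken as the sum of the 5 viral barcodes, which was not tested. Sums were tested with edgeR 4.0.16 (R 4.3.3; TMM, filterByExpr, quasi-likelihood F test, library as block, Benjamini-Hochberg). The test has 3 residual degrees of freedom and borrows 152 from all genes, so adjusted p-values rest mainly on the pooled spread. Levels are CPM computed with TMM factors. Standard errors were derived from the F statistic. Shares, depth and mitochondrial percent were compared by exact sign-flip tests over 4 libraries. Cells were thinned without replacement to 10000 or 2000 UMIs (seed 1). Microglia-like cells had 5 or more UMIs of C1qa, C1qb and Csf1r together, 0 of Slc17a7 and no entry in the cell table, and met the same limits. The unsorted libraries are separate mice and the sorted library is a pool. Both subtypes of a library come from the same animals, which makes the library a pair: the deviations of both subtypes from their means correlated at 0.147, 0.169, 0.228 and 0.586 in the 4 libraries. The interaction of subtype and sorting was fitted in the same way.

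Members and gene lists were chosen with earlier results of these data known. Named genes were the 12 furthest in each direction (at 50 CPM or more, same direction in 4 of 4 libraries), the 5 called and 3 uncalled members per list ranked by fold change and level, the marker and projection genes of the study, and up to 10 genes whose difference departed in the sorted library. Fezf2, Nefl, Cck, Fam19a1, Mag, the list members with too few counts to test and the promoter motifs were added after values were seen. Gene symbols are those of the matrix, and GENCODE M21 positions show that Ncald, Nptxr, Pcp4, Rmst, Mobp, Cdh12, Aldh1l1, Gria2, Stmn1 and Ndufb2 overlap another gene on the same strand. The script was tested on simulated data. Alternatives were DESeq2 1.42.0, other scalings and filters, no block, and leaving out libraries or cells. Some genes are not reported here.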

Additional observations from a re-analysis of the deposited data

Results flagged for a closer look

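The difference between L5-S100b and L5-Bcl6 changed between the sorted and the unsorted libraries for 34 of 13123 genes tested (0.259%; interaction of subtype and sorting, edgeR's quasi-likelihood test at an adjusted p under 0.05). Of these, 30 had a lower log2 ratio of L5-S100b over L5-Bcl6 in the sorted library and 4 a higher one, and 907 genes passed an unadjusted p under 0.05. The sorted side is 1 library from 3 pooled mice, so sorting and that library cannot be told apart, and the test assumes that it varies like the unsorted libraries. Several of the 10 genes with the smallest p encode parts of the respiratory chain or ATP synthase: Cox7b changed by -0.51 (log2), Ndufb2 by -0.56, Usmg5 by -0.40, Cox8a by -0.30, Cox7c by -0.32, and Chchd2, a mitochondrial regulator, by -0.32. For Cox7b the log2 ratio was -0.21, -0.23 and -0.06 across unsorted 1, 2 and 3, and the sorted library gave -0.68. These genes were picked by p, and the list of 22 nuclear respiratory genes does not hold Cox7b, Ndufb2, Usmg5 or Cox7c. Of the 22, 11 were lower in the sorted library, with a median of -0.01, and 2 were called, Cox8a and Cox6c (-0.30). Cox6b1 (-0.30) and Cox14 (-0.40), also outside the list, were called in the same direction. A shift of respiratory genes as a group was not tested. The other genes named by p were Camk2n1 (-0.30), an inhibitor of CaMKII, Tmsb4x (-0.24), Nnat (-0.46) and the transcription factor Sox5 (-0.89). Sox5 had log2 ratios of 0.40, 0.19 and -0.45 across unsorted 1, 2 and 3, a spread that includes both directions, and the sorted library gave -0.82. Nptx2 also passed the test, with a fitted difference of 8.36, which rests on 0 counts in the 67 sorted L5-Bcl6 neurons and is no measure of size.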

How the results depend on the processing

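The count of called genes, 2848, was 2312 with DESeq2 (2297 shared), 2851 with RLE factors, 2839 with library sizes alone, 3034 without a filter, 2367 with no replicate block for the pairing of subtypes within a library, 2674 to 2707 when 1 library was left out, 2202 with thinned cells and 2755 in barcode-positive neurons. It fell to 1502 with a log2 fold change of 1 or more required and to 45 of 956 genes tested without neurons carrying 3 or more UMIs of other cell types, a limit that left 44 L5-S100b and 27 L5-Bcl6 neurons. In those few neurons Nnat turned to 1.48, and without neurons carrying defining markers (added after seeing the data, 2018 calls) Cyr61 turned to 1.48, against -0.18 and not called with all neurons. No library, when left out, turned the direction of a named gene. Calls lost when 1 library was left out were Tshz2 (0.68 without unsorted 1, 0.48 without unsorted 2), Itm2a (0.41 without unsorted 1, 0.53 without unsorted 2, 0.57 without the sorted library), Sla (-1.11 without unsorted 2, -0.95 without the sorted library), Usmg5 (-0.42 without the sorted library), Syt17 and Uqcrc1. The count of 34 genes whose difference departed in the single sorted library was 29 without a filter. Differences in barcode share (1.88 to 4.66 points), depth and mitochondrial percent kept their direction when any 1 library was left out. The difference in barcode CPM did not (-76.0 to 108). For all of these, 4 libraries cannot give an exact p under 0.125. L5-Bcl6 had fewer cells and counts than L5-S100b, which limits low genes.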
